A study of Homo sapiens with 12 samples.

Results

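The genes described here are 10 transcriptional outputs and negative feedback genes of the ERK pathway, measured by RNA sequencing in 4 human cancer cell lines. They are the phosphatase genes *DUSP4*, *DUSP5* and *DUSP6*, the Sprouty family genes *SPRY2*, *SPRY4* and *SPRED1*, the ETS factor genes *ETV4* and *ETV5*, the immediate-early gene *EGR1*, and *PHLDA1*. They were chosen by gene symbol, and each symbol matched 1 of the 57187 genes in the count table. All 10 passed the filter on low counts that left 17211 genes for testing.

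ERK is the last kinase of the RAS, RAF and MEK cascade, which carries signals from growth factor receptors to the nucleus. Active ERK switches on a set of genes, some of whose products shut the cascade down again: dual-specificity phosphatases remove the activating phosphates from ERK, and Sprouty and SPRED proteins act upstream of it at the level of RAS and RAF. The RNA levels of these genes are therefore widely used as a readout of ERK output in tumour cells, beside transcription factors such as ETV4, ETV5 and EGR1 that ERK signalling induces.

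The lines were MDA-MB-231, a triple-negative breast cancer line, HCC1954, a breast cancer line with amplified ERBB2, and the ovarian cancer lines OVCAR8, which the sample titles spell OVAR-8, and SKOV3, which also has amplified ERBB2. Each line was sequenced as parental cells labelled as untreated, as cells transfected with wild type SIVA (SIVA-WT) and as cells transfected with the D160N point mutant (SIVA-D160N), which gave 12 libraries and 4 per condition. SIVA is a pro-apoptotic adaptor protein, and the study asked how the mutant changes tumour cell behaviour. The labels give lipid transfection of a linearized vector and hygromycin selection, and no library of empty-vector cells is named in them, although the study's text calls its controls EV. Parental and transfected cells may thus also differ by transfection and selection, which cannot be told apart from SIVA itself in these comparisons. Each combination of line and condition is 1 library, so differences inside a line could not be set against replicates, and in tests over conditions the 4 lines were the replicates.

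The libraries held 35791455 to 45890398 counts, and a gene at 0 counts was limited to 0.0664 to 0.0856 CPM (counts scaled to the size of the library, with TMM factors), taking 3 counts as the limit and covering counting error only. The transfected gene *SIVA1* had 1272 to 6723 counts in 10 of the 12 libraries, 930 in HCC1954 *SIVA-D160N* and 0 in parental HCC1954, where the limit is 0.0720 CPM. *PAX8*, a Mullerian lineage marker, stood at 61.1 to 76.4 CPM in OVCAR8 and at 230.0 to 243 CPM in SKOV3, against 1.56 to 3.43 CPM in the breast lines. The other Mullerian markers listed, *MUC16* and *WT1*, did not separate the tissues. *MUC16* was at 66.1 to 115 CPM in HCC1954, and at most 0.0274 CPM in OVCAR8 and 1.58 CPM in SKOV3. *WT1* was at 5.55 to 8.06 CPM in HCC1954, 5.89 to 6.83 in OVCAR8 and 0.397 to 1.11 in SKOV3. *GATA3*, a breast luminal marker, reached 42.8 to 49.7 CPM in HCC1954 but 1.79 to 2.86 CPM in MDA-MB-231. In the ovarian lines it was at 5.68 to 6.28 CPM in OVCAR8 and at most 0.0246 CPM in SKOV3. *ERBB2* was at 5736 to 12170 CPM in HCC1954 and SKOV3 and at 32.1 to 78.1 CPM in the other two lines. Of the markers of other cell types, the leukocyte gene *PTPRC* was at 0 in 9 libraries, and *PECAM1* was at 32.6 to 62.8 CPM in HCC1954.

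The cell line set most of the level of these genes. On the log2 CPM scale, with a prior count of 2, differences between lines held 64.4% (*EGR1*) to 99.5% (*DUSP4*) of each gene's variance over the 12 libraries, and differences between conditions held 0.207% (*DUSP4*) to 13.1% (*EGR1*). MDA-MB-231 had the highest mean for 9 of the 10 genes, and SKOV3 for *EGR1*. The lowest mean was in SKOV3 for 5 genes, in OVCAR8 for 3 and in HCC1954 for 2. All 10 genes passed edgeR's quasi-likelihood test for any difference among the lines (FDR under 0.05), but so did 93.9% of all genes tested, so this count is near the background. The 3 libraries of a line come from 1 cell lineage and differ in condition, so these p-values measure the spread between such libraries.

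**Figure D1:**
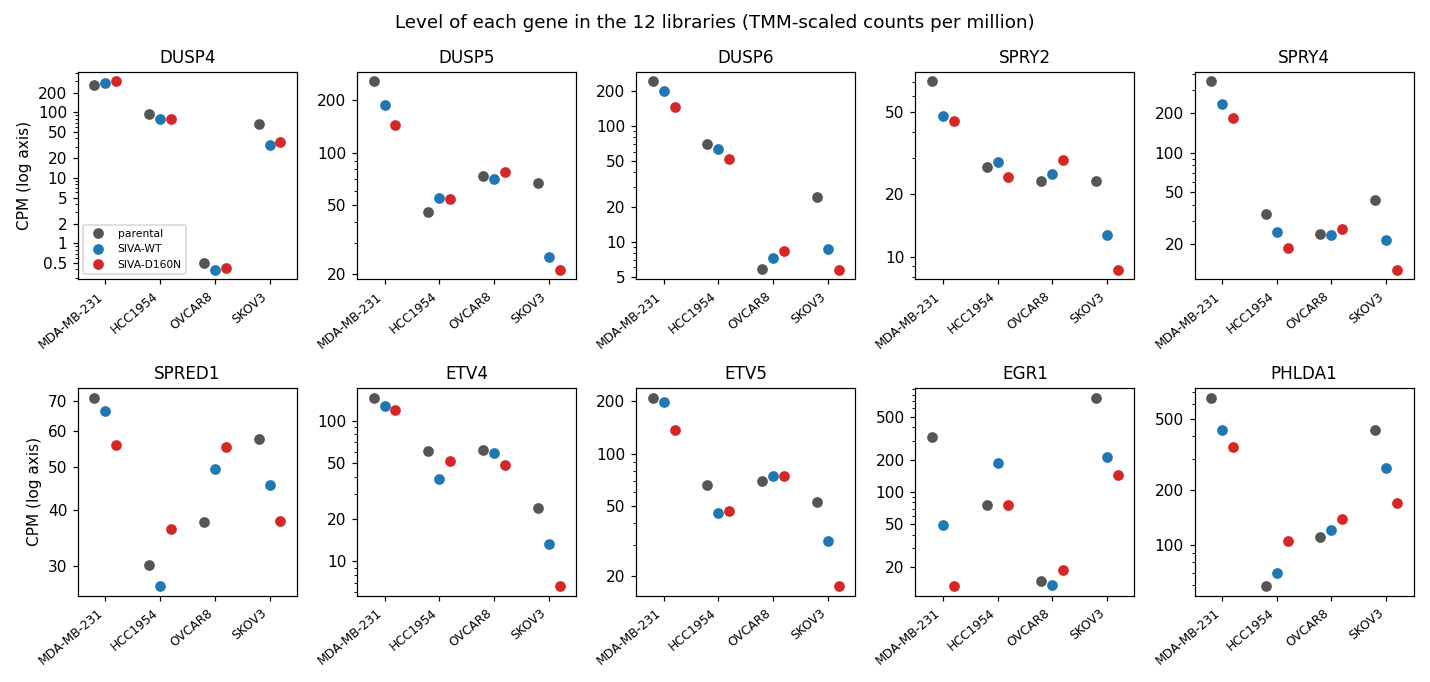
Level of each of the 10 genes in CPM (vertical log axis) in the 4 cell lines, with 1 point per library coloured by condition. MDA-MB-231 has the highest mean level in 9 of the 10 panels, *DUSP4* lies below 0.5 CPM in OVCAR8, and the spread between conditions is widest for *EGR1*.

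The plot of CPM by line and condition shows how far the lines lie apart. By pairs of lines, and at an FDR under 0.05, 9 of the 10 genes differed between MDA-MB-231 and HCC1954 (70.8% of all genes), 9 between MDA-MB-231 and OVCAR8 (64.1%), and 7 between MDA-MB-231 and SKOV3 (68.5%). HCC1954 and OVCAR8 differed in 4 (70.5%). SKOV3 differed in 7 from HCC1954 (68.9%) and in 7 from OVCAR8 (70.2%). Ranked by line mean, the 10 genes give 30 pairs of neighbouring lines, of which 16 passed edgeR's test. Neighbours were picked by the same line means, and their share among all genes was not computed, so this count is a description. Levels can be compared between genes only per length, and per kilobase of annotated exon *PHLDA1* was the most abundant of the 10 in MDA-MB-231 (80.8 RPKM on average), *DUSP5* in OVCAR8 (29.03 RPKM) and *EGR1* in HCC1954 and SKOV3 (35.9 and 118 RPKM).

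DUSP4 and DUSP5 are nuclear phosphatases, and DUSP6 is the cytoplasmic phosphatase that is specific for ERK. In the order parental, *SIVA-WT* and *SIVA-D160N*, *DUSP4* was at 262, 279.6 and 298 CPM in MDA-MB-231. It was at 95.03, 80.5 and 78.8 CPM in HCC1954 and at 65.9, 32.3 and 35.8 CPM in SKOV3. OVCAR8 nearly lacked it, with 15 to 18 counts per library, or 0.493, 0.394 and 0.419 CPM. The range between the highest and the lowest line mean, 9.18 on the log2 scale, was the largest among the 10 genes, and the 3 neighbouring pairs of lines in the order MDA-MB-231, HCC1954, SKOV3 and OVCAR8 each passed edgeR's test. *DUSP4* was also the only one of the 10 genes that was higher in *SIVA-D160N* than in parental MDA-MB-231 cells, by a log2 ratio of 0.19.

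*DUSP5* was at 257, 188 and 144 CPM in MDA-MB-231 and at 66.5, 25.1 and 21.2 CPM in SKOV3, again as parental, *SIVA-WT* and *SIVA-D160N*. Both transfectants were thus lower than parental cells in these lines, with log2 ratios of -0.83 and -1.65 for *SIVA-D160N*. In HCC1954 it was at 45.8, 54.7 and 53.98 CPM, and in OVCAR8 at 72.9, 70.5 and 77.4 CPM, where the 3 libraries of each line lie close together. In the order of its line means, OVCAR8 and HCC1954, and HCC1954 and SKOV3, were neighbours that did not pass the test of their difference (FDR 0.153 and 0.102, edgeR).

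*DUSP6* was at 245, 201 and 146 CPM in MDA-MB-231, at 69.9, 63.98 and 51.6 CPM in HCC1954 and at 24.6, 8.65 and 5.71 CPM in SKOV3. In each of these lines its level was lower in *SIVA-WT* than in parental cells and lower again in *SIVA-D160N*. OVCAR8 went the other way, from 5.78 CPM in parental to 7.23 and 8.24 CPM in the transfectants. In SKOV3 the *SIVA-D160N* library was 4.28-fold below the parental library, and in OVCAR8 it was 1.42-fold above it. SKOV3 and OVCAR8 were the lowest lines, and their difference did not pass the test (FDR 0.121, edgeR).

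SPRY2 and SPRY4 block the activation of RAS by receptor tyrosine kinases, and SPRED1 brings the RAS inactivator neurofibromin to the membrane. *SPRY2* was at 70.5, 47.7 and 45.4 CPM in MDA-MB-231 and at 23.3, 12.7 and 8.62 CPM in SKOV3 (parental, *SIVA-WT* and *SIVA-D160N*). In HCC1954 it was at 27.1, 28.7 and 24.3 CPM and in OVCAR8 at 23.3, 24.97 and 29.3 CPM. Parental cells had the highest level in MDA-MB-231 and SKOV3, and not in the other two lines, whose difference in *SPRY2* did not pass the test (FDR 0.929, edgeR).

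*SPRY4* set MDA-MB-231 apart from the rest, at 351, 234 and 182 CPM there against 34.1, 24.9 and 18.7 CPM in HCC1954. It was at 23.96, 23.4 and 26.4 CPM in OVCAR8 and at 43.6, 21.7 and 12.8 CPM in SKOV3. Every MDA-MB-231 library lay above every library of the other lines, and no pair among those 3 lines passed edgeR's test (FDR 0.745 to 0.9604). In MDA-MB-231, HCC1954 and SKOV3 the order was parental, *SIVA-WT* and *SIVA-D160N* from high to low, and *SIVA-D160N* cells were 1.92-fold, 1.82-fold and 3.41-fold below parental cells. In OVCAR8 the *SIVA-D160N* library was 1.101-fold above the parental one.

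*SPRED1* varied least between lines, with a range of line means of 1.06 on the log2 scale. Its line means were 64.7 CPM in MDA-MB-231, 47.5 in OVCAR8, 47.1 in SKOV3 and 31.2 in HCC1954, with an SD of 4.66 to 10.1 CPM (n = 3 libraries of a line). Among neighbours in this order SKOV3 and HCC1954 passed edgeR's test (FDR 0.0173). From parental to *SIVA-D160N* it was lower in MDA-MB-231 and SKOV3 (log2 ratios -0.35 and -0.61) and higher in HCC1954 and OVCAR8 (0.27 and 0.56).

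ETV4 and ETV5 are transcription factors of the PEA3 group of the ETS family. *ETV4* was at 146, 128 and 118 CPM in MDA-MB-231 and at 60.8, 38.5 and 51.95 CPM in HCC1954 (parental, *SIVA-WT* and *SIVA-D160N*). In OVCAR8 it was at 62.1, 58.7 and 48.4 CPM and in SKOV3 at 23.9, 13.3 and 6.65 CPM. *ETV4* was the single gene of the 10 that was lower than parental in *SIVA-D160N* in all 4 lines, by log2 ratios of -0.23 to -0.36 in 3 lines and of -1.84 in SKOV3. SKOV3 was its lowest line, 3.68-fold below HCC1954 (FDR 8.38e-05, edgeR).

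*ETV5* was at 209, 196 and 137 CPM in MDA-MB-231 and at 53.3, 31.8 and 17.5 CPM in SKOV3. In HCC1954 it was at 66.4, 45.9 and 47.3 CPM, with both transfectants below parental cells. In OVCAR8 the 3 libraries were almost level, at 70.03, 73.98 and 74.9 CPM. OVCAR8 and HCC1954, its middle lines, did not pass the test of their difference (FDR 0.0787, edgeR), while MDA-MB-231 lay above both and SKOV3 below both at an FDR under 0.05.

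EGR1 is a zinc finger factor that cells make within minutes of a growth factor or stress signal, through serum response factor and its ERK-activated partners on the gene's promoter. *EGR1* was at 323, 49.2 and 13.3 CPM in MDA-MB-231 (parental, *SIVA-WT* and *SIVA-D160N*) and at 754, 210.0 and 145 CPM in SKOV3. In MDA-MB-231 the *SIVA-D160N* library was thus 24.1-fold below the parental one, the largest difference from parental cells among the 10 genes. Parental and *SIVA-D160N* cells were level in HCC1954, at 75.05 and 75.2 CPM, but its *SIVA-WT* library was at 188 CPM. OVCAR8 was low throughout, at 14.97, 13.7 and 18.7 CPM. The spread within lines was wide, and no pair among MDA-MB-231, HCC1954 and SKOV3 passed edgeR's test, with an FDR of 0.0507 for the closest pair, and OVCAR8 differed from each of them (FDR 0.00146 to 0.0462).

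The promoter windows of RefSeq (GRCh38.p14), from 250 bases before to 50 after a start site, were searched on both strands for letters that ERK-driven factors are known to bind. Of the 10 genes, *EGR1*, *SPRY4*, *PHLDA1*, *DUSP6*, *SPRY2* and *SPRED1* had windows there, 8 in all because *SPRY2* had 3. The CArG box, the serum response factor motif, was in 1.29% of all 35116 windows and among these genes in *EGR1* alone, at 2 places that begin 105 and 83 bases before the start site. CCGGAA, an ETS motif, was in 17.2% of all windows and here in 1 window of *SPRY2* and in that of *PHLDA1*. Only these exact letters were searched, so other forms of ETS site were not counted in any window, that of *EGR1* included. The AP-1 motif TGANTCA (7.71% of all windows) and the CRE motif TGACGTCA (1.85%) were in none of the 8. A match is a description of the letters, not of binding. The 3 windows with a match are printed 5′ to 3′ on the gene's strand, with the matched letters in capitals. They are *EGR1* at chr5:138465229-138465528 (plus strand, CArG boxes), *SPRY2* at chr13:80341077-80341376 (minus strand, CCGGAA) and *PHLDA1* at chr12:76031727-76032026 (minus strand, CCGGAA in its reverse complement).
EGR1: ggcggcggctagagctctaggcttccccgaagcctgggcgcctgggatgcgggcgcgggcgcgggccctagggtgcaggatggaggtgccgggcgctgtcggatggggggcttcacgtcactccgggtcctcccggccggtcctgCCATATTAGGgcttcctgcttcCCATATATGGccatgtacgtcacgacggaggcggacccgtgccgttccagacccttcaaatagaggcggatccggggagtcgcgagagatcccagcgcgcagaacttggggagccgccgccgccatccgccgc
SPRY2: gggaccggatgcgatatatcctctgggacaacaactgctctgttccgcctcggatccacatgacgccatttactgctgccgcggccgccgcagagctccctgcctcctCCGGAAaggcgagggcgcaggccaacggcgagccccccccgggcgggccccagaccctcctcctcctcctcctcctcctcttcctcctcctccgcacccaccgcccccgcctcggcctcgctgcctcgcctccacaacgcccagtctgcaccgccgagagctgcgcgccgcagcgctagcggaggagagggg
PHLDA1: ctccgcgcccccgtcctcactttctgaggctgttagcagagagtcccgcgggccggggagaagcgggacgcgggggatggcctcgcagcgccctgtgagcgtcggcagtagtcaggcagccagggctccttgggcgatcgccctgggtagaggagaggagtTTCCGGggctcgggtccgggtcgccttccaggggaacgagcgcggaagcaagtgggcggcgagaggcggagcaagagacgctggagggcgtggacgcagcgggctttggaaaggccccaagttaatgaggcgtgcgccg

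PHLDA1 is a pleckstrin homology domain protein whose RNA follows MEK and ERK activity in many tumour lines. *PHLDA1* was at 654, 434 and 346 CPM in MDA-MB-231 and at 430.2, 264 and 170.1 CPM in SKOV3 (parental, *SIVA-WT* and *SIVA-D160N*), with the same falling order in both lines. It had the opposite order in the other two lines, at 58.8, 69.5 and 105 CPM in HCC1954 and 111, 121 and 138 CPM in OVCAR8. The *SIVA-D160N* library was 1.89-fold and 2.53-fold below parental cells in MDA-MB-231 and SKOV3, and 1.78-fold and 1.25-fold above them in HCC1954 and OVCAR8. MDA-MB-231 and SKOV3, its high lines, narrowly missed the threshold (FDR 0.0572, edgeR).

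Within lines, the 10 genes differed in direction by line. From parental to *SIVA-D160N* cells, 10 of the 10 had a lower level in SKOV3 (median log2 ratio -1.62) and 9 in MDA-MB-231 (median -0.69). In HCC1954 6 were lower (median -0.19), and in OVCAR8 2 were lower and 8 higher (median 0.23). The medians over all genes tested were between -0.020 and 0 in each of these lines. At least 2-fold lower were 8 of the 10 genes in SKOV3, where 6.05% of all genes were, 1 in MDA-MB-231 (*EGR1*; 4.30% of all genes), and 0 in HCC1954 (5.51%) and OVCAR8 (1.55%). The 2 genes within 2-fold in SKOV3 were *DUSP4* and *SPRED1*.

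Lineage markers also differed between these libraries. Of 18 markers, 2 were at least 2-fold lower (*ERBB2* and *ESR1*) and 3 at least 2-fold higher (*CDH1*, *WT1* and *MUC16*) in *SIVA-D160N* than in parental SKOV3 cells. *ERBB2*, the gene of the receptor HER2 that signals into the RAS cascade, was at 12170 CPM in parental, 8860 in *SIVA-WT* and 5964 in *SIVA-D160N* SKOV3, and at 9223, 7697 and 5736 CPM in HCC1954. Its level thus had the same falling order in both lines with amplified *ERBB2*, and also in OVCAR8, at 78.1, 74.6 and 69.5 CPM. In MDA-MB-231 it was at 32.1, 36.4 and 35.4 CPM, with parental cells the lowest. *CDH1*, *ESR1*, *WT1* and *MUC16* were under 3 CPM in each SKOV3 library, and *CDH1* was the lowest, at 6 to 20 counts. In HCC1954 the mesenchymal genes *VIM* (95.6, 161 and 290.2 CPM) and *ZEB1* (0.168, 0.813 and 1.63 CPM) were at least 2-fold higher and *KRT19* at least 2-fold lower in *SIVA-D160N* than in parental cells. In MDA-MB-231 and OVCAR8, 1 marker each lay apart by 2-fold (*CDH1* and *PECAM1*, both lower). *CDH1* had 0 to 3 counts in the MDA-MB-231 libraries, which is too few to tell a change. The part of these differences in the values of the 10 genes was not tested.

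**Figure D2:**
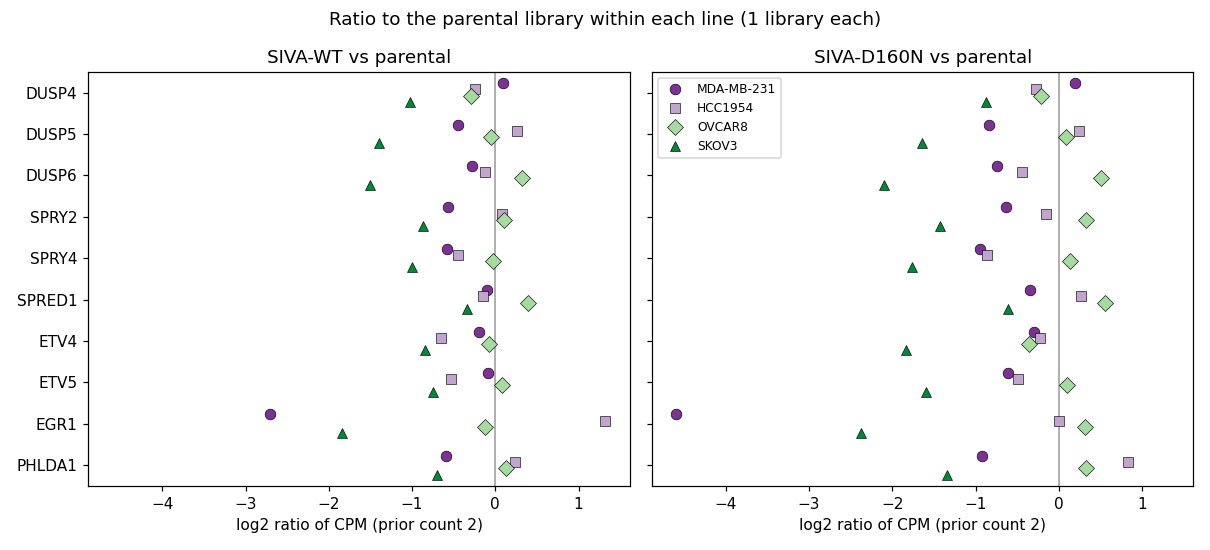
Log2 ratio of CPM (prior count of 2) of each transfectant to the parental library of the same line, for the 10 genes, with 1 symbol per line and 1 library on each side of the ratio. In *SIVA-D160N* vs parental all 10 SKOV3 symbols lie left of 0 and 8 of the 10 OVCAR8 symbols lie right of it.

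*SIVA-WT* vs parental uses the same parental libraries, so the 2 comparisons share whatever is particular to those libraries, and their values are given side by side only. In SKOV3 10 of the 10 genes were lower in *SIVA-WT* too (median log2 ratio -0.94), and 9 were in MDA-MB-231 (-0.37), 6 in HCC1954 (-0.14) and 5 in OVCAR8 (0.024). At least 2-fold lower were 5 in SKOV3 (3.85% of all genes), 1 in MDA-MB-231 (2.10%), 0 in HCC1954 (1.02%) and 0 in OVCAR8 (1.19%). The 5 in SKOV3 were *DUSP4*, *DUSP5*, *DUSP6*, *SPRY4* and *EGR1*, and the plot of the ratios shows them left of the value -1. In HCC1954, *EGR1* was the single gene of the 10 at least 2-fold higher in *SIVA-WT* than in parental cells, by 2.499-fold, where 3.47% of all genes were. In the other lines 0 of the 10 were at least 2-fold higher in *SIVA-WT*, against 1.94% of all genes in SKOV3, 2.48% in MDA-MB-231 and 1.97% in OVCAR8.

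Across the 4 lines, none of the 10 genes was called in *SIVA-D160N* vs parental, which took an FDR under 0.05 together with a log2 fold change of 1.5 or more in size, with edgeR's quasi-likelihood test and the line as a block, where 0.00581% of all genes did. All 10 estimates were negative, with a median of -0.60 on the log2 scale against -0.0090 over all genes tested. The lowest FDR was that of *SPRY4*, 0.166, at a log2 fold change of -0.86 ± 0.22 (SE). *EGR1* had the largest estimate, -1.86 ± 0.74, with a 95% interval of -3.48 to -0.24 and an FDR of 0.3002 (edgeR). It ran from -2.63 without the OVCAR8 libraries to -0.83 without those of MDA-MB-231, and was -1.19 without the *SIVA-D160N* library of MDA-MB-231 and -0.998 without the parental one. The estimates of *DUSP6*, *ETV5* and *ETV4* were -0.74 ± 0.30, -0.64 ± 0.21 and -0.63 ± 0.23. Those of *DUSP5*, *SPRY2*, *DUSP4*, *PHLDA1* and *SPRED1* were -0.57, -0.47, -0.33, -0.28 and -0.036, with 95% intervals that include 0.

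**Figure D3:**
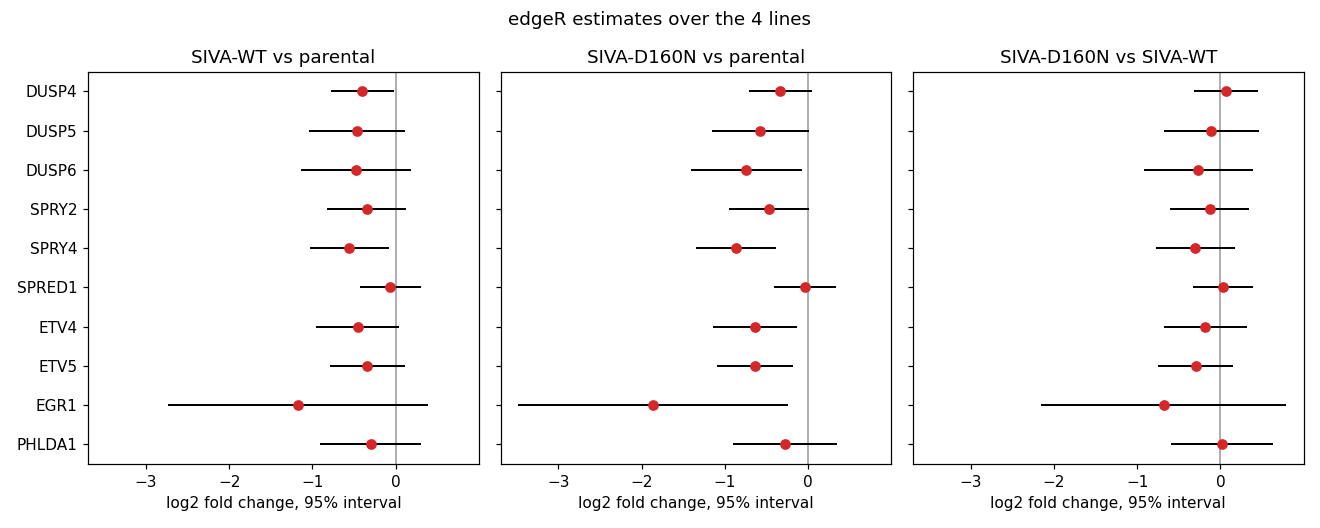
Log2 fold change of each gene over the 4 lines from edgeR (points) with its 95% interval (lines) in *SIVA-WT* vs parental, *SIVA-D160N* vs parental and *SIVA-D160N* vs *SIVA-WT*. All 10 points lie left of 0 in the first 2 panels, and all 10 intervals include 0 in the last panel.

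At an unadjusted p under 0.05, 5 of the 10 genes were lower in *SIVA-D160N* (*SPRY4*, *ETV5*, *ETV4*, *EGR1* and *DUSP6*), against 7.68% of all genes tested. This count rested on SKOV3. It was 1 without the 3 SKOV3 libraries, with a median estimate of -0.22, and it was 2 without the parental SKOV3 library and 3 without the *SIVA-D160N* SKOV3 library. Without the HCC1954 libraries it was 8, and without parental HCC1954, the library at 0 counts of *SIVA1*, it was 7. With every gene of at least 1 count it was 8, and DESeq2 gave 7 at an unadjusted p under 0.05 and called 0 of the 10 at both thresholds. The direction of *PHLDA1* also rested on SKOV3, at a log2 fold change of 0.079 without that line, and the estimate of *DUSP4* was -0.043 without parental SKOV3. With every gene of at least 1 count in the fit, *EGR1* passed both thresholds (FDR 0.00243, edgeR).

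In *SIVA-WT* vs parental, 0 of the 10 genes and 0% of all genes passed both thresholds. All 10 estimates were negative, from -1.18 (*EGR1*) to -0.066 (*SPRED1*), and edgeR's FDR was 1.0000 for each of them. At an unadjusted p under 0.05, 2 of the 10 genes were lower, *DUSP4* (-0.40 ± 0.17) and *SPRY4* (-0.56 ± 0.21), against 1.07% of all genes. This count was 0 without the SKOV3 libraries, without either the parental or the *SIVA-WT* library of SKOV3, and without the *SIVA-WT* library of OVCAR8, it was 7 without the parental library of OVCAR8, and it lay between 1 and 4 without any of the other libraries or lines, with 4 without parental HCC1954. With every gene of at least 1 count it was 8, and DESeq2 called 0 of the 10 at both thresholds. The plot of edgeR estimates shows these values beside those of the mutant.

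The mutant was also compared directly with the wild type protein. None of the 10 met both thresholds in *SIVA-D160N* vs *SIVA-WT*, where 0% of all genes did, and 0 were lower at an unadjusted p under 0.05, against 4.30% of all genes (edgeR's quasi-likelihood test). This count was 2 without the *SIVA-D160N* library of OVCAR8 and with every gene of at least 1 count, and 1 without the OVCAR8 libraries. DESeq2 also called 0 of the 10 in this contrast. The estimates were negative for 7 genes and positive for *DUSP4*, *SPRED1* and *PHLDA1*, but negative for 4 only, with a median of 0.071, without the *SIVA-D160N* library of SKOV3. These data leave room for sizeable differences in either direction. The 95% interval reached from -2.15 to 0.79 for *EGR1*, from -0.92 to 0.39 for *DUSP6* and from -0.78 to 0.17 for *SPRY4*. Within lines 9 genes were lower in SKOV3 (median log2 ratio -0.57), 9 in MDA-MB-231 (-0.34), 6 in HCC1954 (-0.025) and 1 in OVCAR8 (0.17).

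The difference of *SIVA-D160N* vs parental between ovarian and breast lines was tested as an interaction. None of the 10 genes passed an FDR of 0.05, as against 0.00581% of all genes (edgeR's quasi-likelihood test), and *DUSP4* was the one gene at an unadjusted p under 0.05, with a difference of -0.71 ± 0.26 on the log2 scale (ovarian minus breast) and an FDR of 0.964. At that p, 2.13% of all genes were lower. *DUSP4* had only 15 to 18 counts per OVCAR8 library, so OVCAR8 informs its ovarian value less than SKOV3 does. The count of 1 rested on single lines and libraries. It was 7 without the OVCAR8 libraries, 4 without parental OVCAR8, 3 without *SIVA-D160N* OVCAR8, 2 with every gene of at least 1 count, and 0 without the SKOV3 or the MDA-MB-231 libraries, without the parental or the *SIVA-D160N* library of either line, with no replicate block and with DESeq2. DESeq2 called 0 of the 10 at an FDR of 0.05 as well. The 2 ovarian lines lie at opposite ends here, since SKOV3 had the lowest median ratio of the 4 lines and OVCAR8 the highest. Leaving out a line leaves 1 line of its tissue, so such a fit compares that line with the 2 lines of the other tissue. The median difference of the 10 genes was -1.04 without OVCAR8, which sets SKOV3 against the breast lines. It was 0.62 without SKOV3, which sets OVCAR8 against them. A contrast of SKOV3 with all the other lines together was not tested.

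The genes of the cascade itself were compared next, from a list of 22 that runs from adaptors and RAS to MEK, ERK and the kinases ERK activates. None passed the thresholds in *SIVA-D160N* vs parental, and their median log2 fold change was 0.043, with 7 negative and 15 positive estimates. At an unadjusted p under 0.05 were 4 of the 22 (3 positive and 1 negative), near the 14.2% of all genes tested, among them *MKNK2*, an ERK-activated kinase gene (-0.39, FDR 0.186, edgeR), and *NRAS* (0.29, FDR 0.175, edgeR). Between lines, *NF1* and *KSR1* were among the genes that varied most in this list. The RAS inactivator gene *NF1* was lowest in MDA-MB-231, at a mean of 26.9 CPM against 41.1 in OVCAR8, 144 in SKOV3 and 171 in HCC1954. *KSR1*, the gene of a scaffold for RAF and MEK, was highest in HCC1954, at 24.8 CPM against 4.20 to 12.4 CPM.

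A further list of 10 genes was made up mostly of feedback genes, with the scaffold gene *CNKSR1* among them. The list held 0 calls in *SIVA-D160N* vs parental, with 8 negative estimates and a median of -0.26. One gene of this list, the Sprouty-related *SPRED2* (-0.32, FDR 0.233, edgeR), was at an unadjusted p under 0.05, as were 14.2% of all genes tested. The members of this list that varied most between lines were the scaffold gene *CNKSR1*, with 27.7 CPM in HCC1954 against 0.353 to 1.35 CPM in the other lines, and the phosphatase genes *DUSP2* and *DUSP9*, with 9.51 and 17.8 CPM in OVCAR8 against at most 0.214 and 2.03 CPM elsewhere. A list of 11 other output genes also held 0 calls, with 5 negative and 6 positive estimates and a median of 0.076. *EPHA4*, the gene of an ephrin receptor, had a log2 fold change of 0.78 (FDR 0.137, edgeR) at an unadjusted p under 0.01, and was higher in 4 of 4 lines. The most variable genes in this list between lines were the EGFR ligand gene *HBEGF*, with 206 CPM in MDA-MB-231 and 2.32 CPM in HCC1954, the AP-1 gene *FOSL1*, with 537 CPM in OVCAR8 and 42.8 CPM in HCC1954, and the ETS gene *ETV1*, with 88.2 CPM in MDA-MB-231 and 8.86 CPM in SKOV3.

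*EGR1* belongs to the immediate-early genes, which also answer to serum, stress and handling of cells, so 11 others were listed beside it. In *SIVA-D160N* vs parental 0 of the 11 passed the thresholds, with 10 negative estimates and a median log2 fold change of -0.83. The AP-1 gene *FOS* (-2.16, FDR 0.209, edgeR) and *IER2* (-0.55, FDR 0.222, edgeR) were at an unadjusted p under 0.01 and lower in 4 of 4 lines. *FOS* was at 137, 18.2 and 10.96 CPM in SKOV3 and at 107, 263 and 47.8 CPM in HCC1954 (parental, *SIVA-WT* and *SIVA-D160N*). It was at 13.5, 5.28 and 2.89 CPM in MDA-MB-231 and at 2.28, 1.97 and 2.12 CPM in OVCAR8. Parental cells had the highest *FOS* level in MDA-MB-231 and SKOV3, as they did for *EGR1*, and in HCC1954 the *SIVA-WT* library was the highest for both genes. *FOSB*, another AP-1 gene, was at 96.97, 0.6499 and 1.53 CPM in SKOV3 and at 15.9, 164 and 10.02 CPM in HCC1954, and the stress-induced gene *ATF3* at 27.1, 0.896 and 1.55 and 33.3, 55.6 and 39.6 CPM. With *FOS* these genes had the widest ranges of line means in the list.

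**Figure D4:**
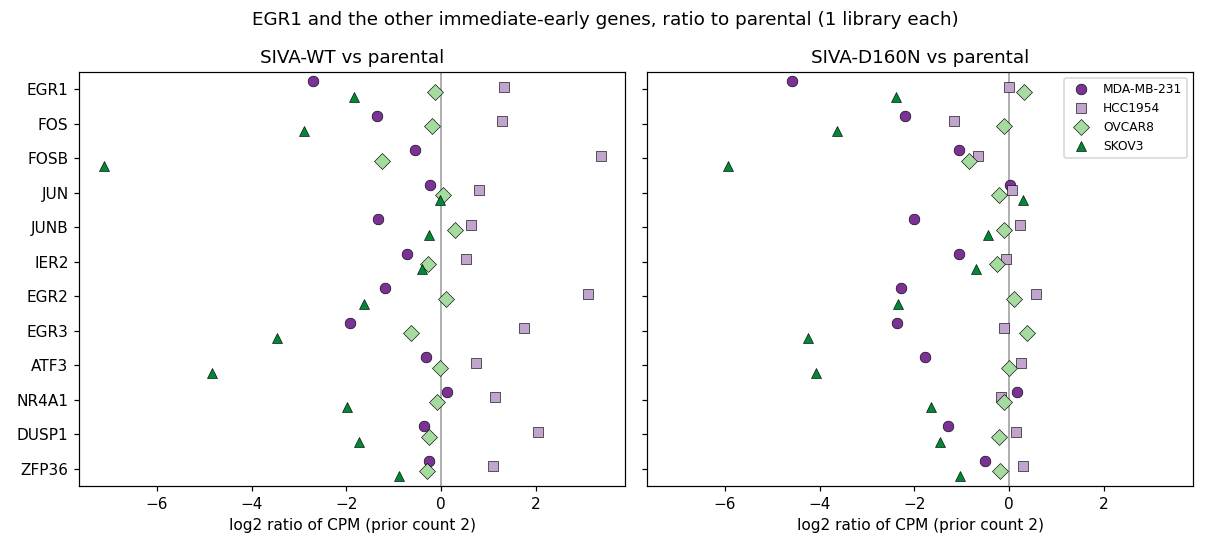
Log2 ratio of CPM (prior count of 2) of each transfectant to the parental library of the same line for *EGR1* (top row) and 11 other immediate-early genes, with 1 symbol per line. In *SIVA-WT* vs parental all 11 other genes lie right of 0 in HCC1954 and left of it in SKOV3.

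Within lines, the immediate-early list moved with the libraries. From parental to *SIVA-D160N*, 9 of the 11 were lower in MDA-MB-231 and 10 in SKOV3, with 8 at least 2-fold lower in each of these lines. Of all genes tested, 4.30% were at least 2-fold lower in MDA-MB-231 and 6.05% in SKOV3. Some of the 8 had few counts in MDA-MB-231. In OVCAR8 8 of the 11 were lower with a median log2 ratio of -0.11, and in HCC1954 5 were lower and 6 higher. From parental to *SIVA-WT*, 11 of the 11 were higher in HCC1954 and 11 lower in SKOV3, as the plot of immediate-early ratios shows. Of the 17211 genes tested, 8465 were higher in HCC1954 and 8403 lower in SKOV3. By at least 2-fold, 7 of the 11 were higher in HCC1954 (3.47% of all genes) and 7 lower in SKOV3 (3.85%). *JUN* was nearly level in SKOV3, at a log2 ratio of -0.031. In MDA-MB-231 and SKOV3 most genes of both lists were thus lower in *SIVA-D160N* than in parental cells, while in OVCAR8 most of the 10 ERK genes were higher and most immediate-early genes lower. The part of handling of the cultures or of the time of harvest in the values of the 10 genes was not tested.

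The 10 genes were more alike in how they varied within lines than in their levels across lines. Over the 12 libraries the 45 pairs of genes had a median Pearson correlation of 0.55 in log2 CPM, from -0.41 (*ETV4* and *EGR1*) to 0.97, with 40 positive. In deviations from the mean of each line the median was 0.71, with 45 of the 45 positive. The mean standardised deviation of the 10 genes ran from 1.99 (parental) to -1.60 (*SIVA-D160N*) in SKOV3 and from 0.86 to -0.81 in MDA-MB-231. It lay between -0.14 and 0.18 in HCC1954 and rose from -0.21 to 0.26 in OVCAR8. The correlations within lines thus rest mostly on SKOV3 and MDA-MB-231. The share of positive pairs among all genes was not computed. The 12 points share 4 lines, and the 3 libraries of a line share a parental origin, so these correlations are a description. *DUSP6*, *SPRY2* and *DUSP5* had the highest mean correlation with the other 9 genes within lines, 0.82, 0.82 and 0.81, and *DUSP4* the lowest, 0.54.

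Among all other genes, those whose level over the 12 libraries was most like the mean standardised level of the 10 were *ANKMY1*, *RP11-513I15.6*, *PPP1R26-AS1*, *FAM86FP* and *PGPEP1* (Pearson r of 0.958 to 0.968, n = 12). In deviations from line means they were *CD163L1*, *THSD4*, *CDKN1A*, *GPR35* and *SULT1C2* (0.965 to 0.982, n = 12). *CDKN1A*, the gene of the cell cycle inhibitor p21, was at 156, 87.9 and 76.6 CPM in MDA-MB-231 and at 13.9, 6.79 and 4.56 CPM in SKOV3 (parental, *SIVA-WT* and *SIVA-D160N*). It was at 51.2 to 53.9 CPM in HCC1954 and at 16.2 to 16.5 CPM in OVCAR8, where its 3 libraries were nearly level. *SULT1C2* had 0 counts in HCC1954, so its likeness rests on the other 3 lines. In SKOV3 few reads set the values of *CD163L1* (0.503, 0.359 and 0.296 CPM) and *GPR35* (0.318, 0.112 and 0.0246 CPM). The last value of *GPR35* lies below the limit of 3 counts in that library, 0.0739 CPM.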

How the data were processed

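RNA from 12 cultures was sequenced by the authors, who per the study's methods aligned stranded paired-end reads with STAR (2.5.3a in the submitters' processing notes, build GRCh38) and took gene counts from it; the annotation release is not given in the sources used here. The deposited counts of 57187 genes are raw. The second deposited table holds the authors' CPM signal with edgeR's TMM scaling and served as an alternative for levels. Every column matched 1 library, and 0 of the 66 pairs of libraries were identical.

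Tests were run on the counts with edgeR 4.0.16 in R 4.3.3 (glmQLFit, glmQLFTest, TMM, filterByExpr by condition, 17211 genes), with terms for line and condition over all 12 libraries and Benjamini-Hochberg adjustment over all genes tested. Condition contrasts were called at an FDR under 0.05 with a log2 fold change of 1.5 or more in size, as in the study, and the others at an FDR under 0.05. The study reports far more genes for *SIVA-D160N* vs parental than were called here, *FOS* and *CDKN1A* among them. Its filter also removed genes without an EntrezGene ID, and the reason for the difference was not tested. Intervals are 95%. CPM used TMM-scaled library sizes, log2 CPM a prior count of 2, and RPKM the exon union of GENCODE v44lift37, so levels per length are approximate. Libraries of 1 line deviated together from their condition means (r of 0.929 to 0.968 for 12 pairs, against -0.447 to -0.191 for 54 pairs of different lines), so the line is the replicate block. Nothing says that the libraries of a line are separate cultures beyond the transfection, so p-values measure the spread between these libraries. Alternatives were DESeq2 1.42.0, RLE normalization, every gene with at least 1 count, other thresholds, no block, no condition term, and leaving out each library and line. The fit was checked on simulated counts with large set changes and a low spread. That check does not cover the spread of these data.

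The genes named were the 10, list genes at p under 0.01 in *SIVA-D160N* vs parental or among the 3 of a list with the widest range of line means, the 5 most similar genes on each scale and *SIVA1*; *SPRED2* was added after its values were seen, and 1 list gene that the rule names is not reported here. The 10 genes, the lists and the rule were chosen with earlier results of these data known. Figures were drawn with matplotlib.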

Additional observations from a re-analysis of the deposited data

Results flagged for a closer look

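In each condition, the 4 lines were examined for a line that stood apart from the rest by Dixon's 95% criterion, for the log2 CPM and the within-line log2 ratios of the 10 genes. Chance gives about 3 such cases in the 60 sets examined, and 3 were found. *SPRY2* in parental MDA-MB-231 was at 6.14 log2 CPM, above 4.54 to 4.76 in the other parental lines. *SPRY4* in *SIVA-WT* MDA-MB-231 was at 7.87 log2 CPM, above 4.44 to 4.64 in the other *SIVA-WT* lines. *ETV4* had a log2 ratio of -1.84 in *SIVA-D160N* vs parental SKOV3, against -0.36 to -0.23 in the other lines. Each value is that of 1 library or 1 pair of libraries.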

How the results depend on the processing

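The condition calls moved most with the filter on low counts. With every gene of at least 1 count, 1 of the 10 genes (*EGR1*) was called in *SIVA-D160N* vs parental in place of 0, 5 had an FDR under 0.05 (*DUSP6*, *EGR1*, *ETV4*, *ETV5* and *SPRY4*) and the calls among all genes went from 1 to 172, with 34909 genes tested. With DESeq2, 1 gene (*SPRY4*, FDR 0.0142) was under 0.05 and 0 were called, with 12 calls among all genes. The same wider filter gave 7 genes in place of 4 for HCC1954 vs OVCAR8. With a log2 fold change of at least 1.5 required as well, HCC1954 vs SKOV3 fell from 7 genes to 3, MDA-MB-231 vs OVCAR8 from 9 to 5 and OVCAR8 vs SKOV3 from 7 to 3. With no replicate block, 0 of the 10 genes were called, 0 were at an unadjusted p under 0.05 in place of 5 in *SIVA-D160N* vs parental, and *PHLDA1* (-0.23) and *SPRED1* (-0.025) changed sign in *SIVA-D160N* vs *SIVA-WT*. The cause was not tested.

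Leaving out 1 library or 1 line turned the sign of small estimates. In *SIVA-D160N* vs parental the log2 fold change ran from -0.65 to 0.079 for *PHLDA1* and from -0.22 to 0.16 for *SPRED1*. In *SIVA-D160N* vs *SIVA-WT* it ran from -0.075 to 0.18 for *DUSP4*, from -0.27 to 0.075 for *DUSP5*, from -0.39 to 0.075 for *ETV4*, from -0.30 to 0.27 for *PHLDA1*, from -0.10 to 0.17 for *SPRED1* and from -0.34 to 0.068 for *SPRY2*. In *SIVA-WT* vs parental it ran from -0.22 to 0.087 for *SPRED1*. The other 8 genes kept a negative estimate in *SIVA-D160N* vs parental in each of 21 fits. Their values nearest 0 with 1 library or line left out lay between -0.83 (*EGR1*) and -0.043 (*DUSP4*). Depth limits *DUSP4* in OVCAR8, with 15 to 18 counts.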
